A study of Mus musculus with 15 samples.

Results

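The matrix metalloproteinases Mmp2, Mmp9, Mmp11, Mmp12, Mmp14, Mmp15 and Mmp17 and the tissue inhibitors of metalloproteinases Timp1, Timp2 and Timp3 were examined in mouse cerebellar cultures exposed to IL-12. These 10 genes, a part of the family, were taken by name out of the 35142 genes to which the transcript estimates could be summed. The list was chosen with earlier results of these data known. Of the 10, 9 passed the filter on low values (CPM, counts scaled to a common library size, of 1 or more in 2 or more cultures) and were tested among 15360 genes, while Mmp9 did not pass.

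The study asked how cells of the central nervous system respond directly to IL-12, away from the inflamed tissue. Cerebellar cells of wild-type C57BL/6 pups, taken between postnatal days 0 and 4, were grown on poly-L-lysine in Neurobasal Plus medium with B27 Plus. On day 14 in vitro, 5 cultures were given 18 hours of IL-12p70 (mouse recombinant protein, both subunits joined) at 30 ng/ml, another 5 were given 100 ng/ml, and 5 stayed unstimulated. All 15 libraries were made from total RNA with a stranded poly(A) kit. No gene was altered in any group, and the labels did not say whether the 5 cultures of a group came from different litters or days, so each p-value below measures the spread between these cultures, which may be technical.

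Matrix metalloproteinases (MMPs) are zinc endopeptidases that cut collagens, laminins, proteoglycans and many cell-surface proteins, and they are made as inactive proenzymes. Some are secreted, and others are held at the cell surface by a transmembrane domain or a lipid anchor, where they can activate secreted family members. TIMPs bind the active site of MMPs and block it, and in the nervous system the balance of both is known for its part in myelination, axon growth, microglial reactivity and breakdown of the blood-brain barrier.

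The libraries held between 25746096 and 38435850 estimated reads. The cultures are labelled as neurons, yet the gene level of 15 cerebellar neuron markers had a median of 5.84 TPM (transcript abundance scaled to length and library size) in the unstimulated cultures, against 661 TPM for 14 microglia markers. The same median was 254 TPM for 12 oligodendrocyte-lineage markers and 181 TPM for 11 astrocyte markers. Single neuron markers ran from a mean of 0.0412 TPM (Pcp2) to 84.9 TPM (Map2), so their median depends on the list. None of the neuron markers was at 0 in all cultures. Because the RNA came from whole mixed cultures, a lower value cannot be told apart as fewer cells of a type or as less RNA per cell.

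Levels between genes were compared only as TPM, which is scaled to transcript length. In the unstimulated cultures Timp2 stood far above the others, at 655 ± 16.8 TPM (SD, n = 5). Timp3 followed at 162 ± 10.4 TPM and Mmp14 at 136 ± 7.76 TPM, and no values of these 3 genes overlapped. Mmp2 (51.5 ± 4.67 TPM), Mmp15 (44.9 ± 3.29 TPM) and Timp1 (43.5 ± 2.68 TPM) formed a middle group in which each gene's values overlapped those of the next.

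Mmp11 (26.7 ± 2.42 TPM) and Mmp12 (19.5 ± 6.53 TPM) came next, also overlapping each other. Mmp17 lay at 5.15 ± 1.02 TPM and Mmp9 last at 0.282 ± 0.155 TPM. In this order the members thus ran from an abundant inhibitor to a gelatinase near the limit of detection. The 3 TIMP genes of the list together held 861 ± 25.4 TPM. Its 3 membrane-anchored MMPs held 186 ± 9.87 TPM and its 4 secreted MMPs 98.0 ± 3.76 TPM. Family genes outside the list, such as Timp4 (mean 33.2 TPM), Mmp19 (19.9 TPM) and Mmp16 (12.45 TPM), were not in these sums.

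**Figure D1:**
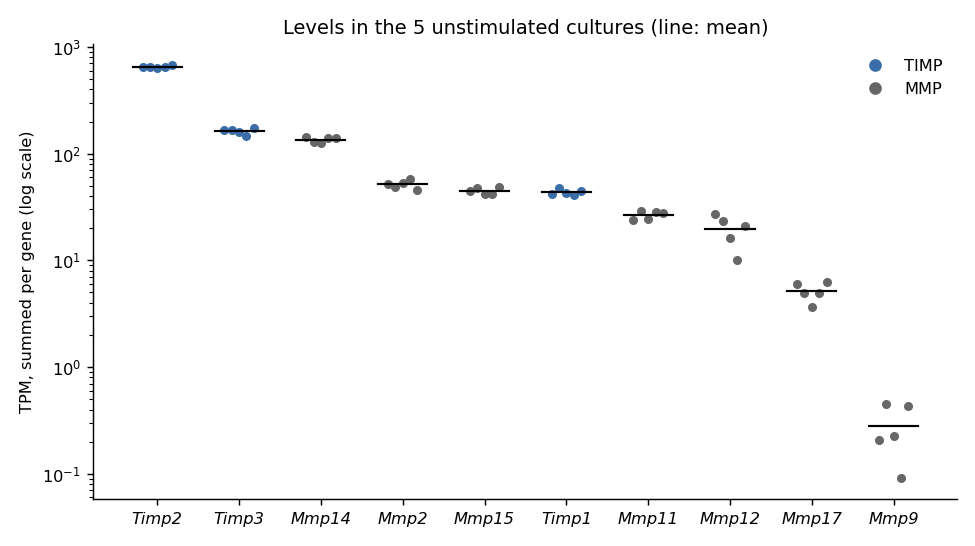
TPM summed per gene (log scale) of the 10 genes in the 5 unstimulated cultures, ordered by mean. Each point is a culture, the line is the mean, blue marks TIMP genes and grey MMP genes. Timp2 lies highest at 636 to 682 TPM and Mmp9 lowest at 0.0908 to 0.453 TPM.

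Across the 9 genes tested, IL-12 at 100 ng/ml raised Mmp14, Mmp17 and Timp1 and lowered Mmp12 and Mmp15 (edgeR quasi-likelihood test, Benjamini-Hochberg false discovery rate, FDR, under 0.05). These 5 calls stand against 9.71% of all genes tested in that comparison (5.84% higher, 3.87% lower). Because the list was not blind to the data, the calls and shares are set side by side as a description only. In the 30 ng/ml cultures Mmp14, Mmp17 and Timp1 were higher and no member was lower, where 7.97% of all genes were called (4.18% higher, 3.79% lower). Both comparisons used the same 5 unstimulated cultures. Between the concentrations, Mmp14 and Timp1 were higher at 100 than at 30 ng/ml, where 0.625% of all genes were called (0.540% higher, 0.0846% lower). With both concentrations averaged, Mmp14, Mmp17 and Timp1 were higher and Mmp12 was lower than unstimulated, where 12.0% of all genes were called (6.74% higher, 5.22% lower).

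The median absolute log2 fold change of the 9 genes at 100 ng/ml was 0.19, beside 0.09 over all genes tested, while their signed medians were 0.02 and -0.0038. The values of 3 members at 100 ng/ml did not overlap the unstimulated values (Mmp12, Mmp14 and Timp1), where 7.17% of all genes had no overlap. For 30 ng/ml this held for Mmp14, Mmp17 and Timp1, where 8.89% had none. Between the concentrations it held for Mmp14, Timp1 and Timp3, where 2.97% had none.

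**Figure D2:**
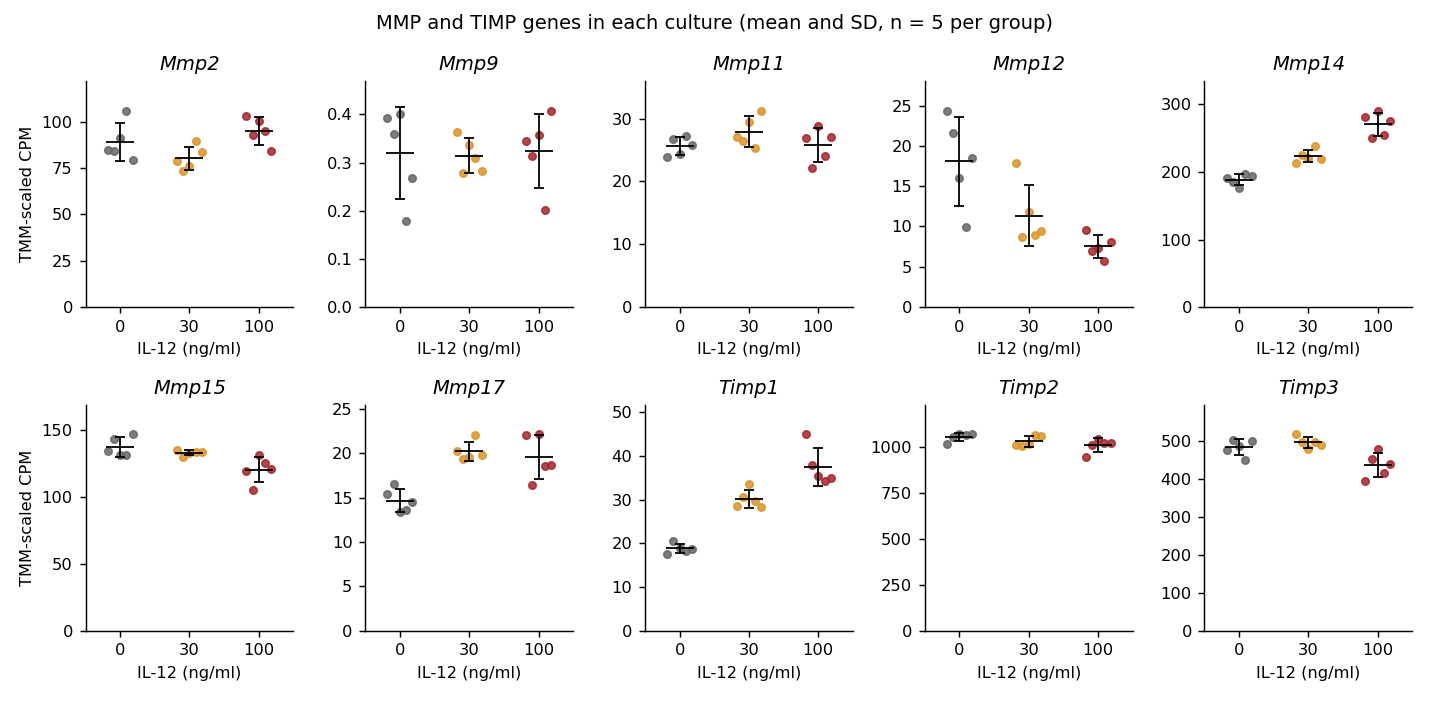
CPM scaled by the trimmed mean of M-values (TMM) against the IL-12 concentration, with a panel and a linear axis from 0 for each gene. Points are cultures, and bars give the mean and SD of 5 cultures per group. Timp1 and Mmp14 rose in steps without overlap between groups, Mmp12 fell from 18.1 to 7.53 CPM, and Mmp9 stayed at or under 0.408 CPM in all 15 cultures.

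**Figure D3:**
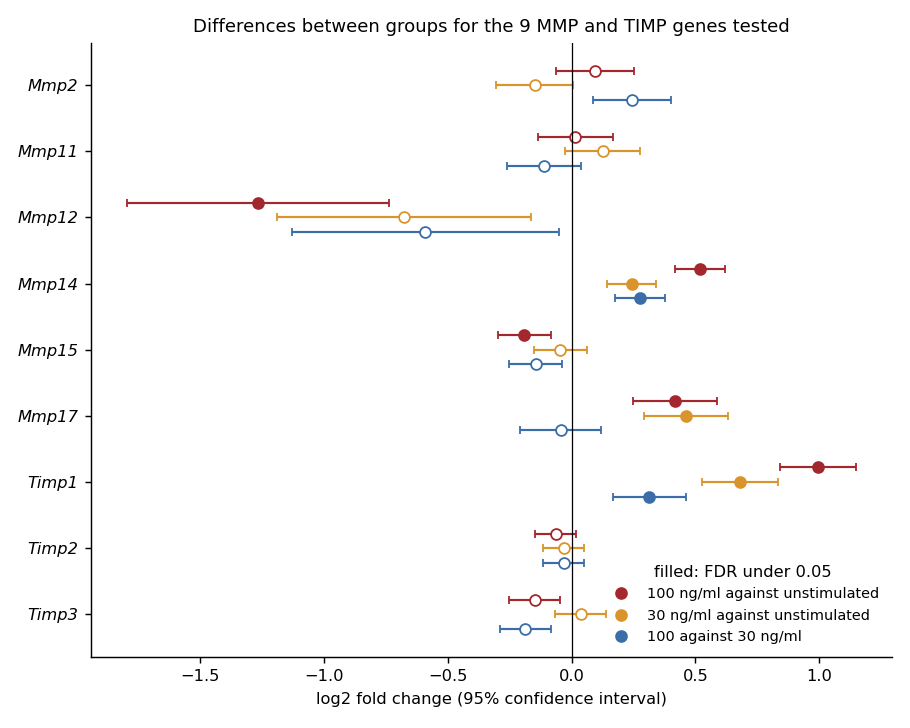
Log2 fold change with its 95% confidence interval for the 9 genes tested, in 3 comparisons. Filled points passed an FDR under 0.05 and open points did not. Timp1 lies farthest to the right, at 0.99 for 100 ng/ml against unstimulated, and Mmp12 farthest to the left, at -1.27.

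Among the membrane-anchored MMPs, Mmp14 (GRCm39 chr14:54668878-54682821, plus strand) encodes the transmembrane collagenase that activates the MMP2 proenzyme at the cell surface. Its TMM-scaled level was 191, 186, 177, 198 and 193 CPM in the unstimulated cultures. It was 214, 225, 221, 238 and 219 CPM at 30 ng/ml. At 100 ng/ml it was 282, 251, 291, 255 and 275 CPM. Every value of the higher concentration lay above every value of the lower one, and both lay above all unstimulated values. The log2 fold change against unstimulated was 0.24 for the lower concentration (SE 0.0479, FDR 0.00524) and 0.52 for the higher one (SE 0.0479, FDR 1.92e-06). The step from 30 to 100 ng/ml was 0.28 on the log2 scale (SE 0.0477, FDR 0.00738). The Mmp14 calls held in all 25 alternative fits of each of these comparisons at an FDR under 0.05, but at an unadjusted p up to 0.01 with a log2 change from 0.5 the call at 100 ng/ml alone was kept.

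Mmp17 (GRCm39 chr5:129661084-129688163, plus strand) encodes a lipid-anchored MMP. Its level was 15.4, 16.5, 13.3, 13.6 and 14.5 CPM in the unstimulated cultures. It was 20.2, 19.3, 19.6, 22.1 and 19.8 CPM at 30 ng/ml. At 100 ng/ml it was 22.03, 16.4, 22.1, 18.6 and 18.7 CPM. All 30 ng/ml values lay above the unstimulated ones, whereas at 100 ng/ml the culture at 16.4 CPM fell within the unstimulated range. Mmp17 rose by a log2 fold change of 0.46 at 30 ng/ml (SE 0.0804, FDR 0.00203) and 0.42 at 100 ng/ml (SE 0.0803, FDR 0.00311). No step between the concentrations was detected for Mmp17, with a difference of -0.04 (95% confidence interval -0.21 to 0.12, FDR 0.863).

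The Mmp17 call depended on the scale. In limma on log2(TPM + 0.5) the log2 fold change was 0.25 for the higher concentration (FDR 0.330) and 0.34 for the lower (FDR 0.179). A short retained-intron transcript, Mmp17-202, held a mean of 25.6% of the gene's TPM on 3.99 to 25.7 estimated reads per culture, while the full-length Mmp17-201 had 358 to 691. The full-length transcript alone stood at 3.51 ± 0.379 TPM unstimulated, 4.98 ± 0.165 at 30 ng/ml and 4.69 ± 0.445 at 100 ng/ml.

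Mmp15 (GRCm39 chr8:96078895-96101708, plus strand) encodes another transmembrane MMP. Its level was 135, 144, 131, 131 and 147 CPM unstimulated. It was 136, 130, 133, 134 and 134 CPM at 30 ng/ml. At 100 ng/ml it was 120, 106, 132, 125 and 121 CPM. The highest culture at 100 ng/ml reached into the unstimulated range. Mmp15 fell by 0.19 on the log2 scale at 100 ng/ml (SE 0.0513, FDR 0.0263) and at 30 ng/ml the difference was -0.05 (95% confidence interval -0.15 to 0.06, FDR 0.659). The call at 100 ng/ml held in 19 of 25 alternative settings. It was lost without unstimulated replicate 2 (FDR 0.0569), without unstimulated replicate 5 (FDR 0.0766) and without 100 ng/ml replicate 1 (FDR 0.0525). The other 12 of 15 fits that left out a culture kept the call. The remaining losses came with changes of method, with an FDR up to 0.0809.

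Summed over Mmp14, Mmp15 and Mmp17, the membrane-anchored MMPs of the list held 171 to 196 TPM in unstimulated cultures, 207 to 227 TPM at 30 ng/ml and 226 to 258 TPM at 100 ng/ml. Mmp14 made up most of each sum. The sum is a description, and no test was applied to it.

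Among the secreted MMPs, Mmp12 (GRCm39 chr9:7344381-7369499, plus strand), the macrophage elastase that microglia and macrophages make, was the only member with a decrease of more than 1 on the log2 scale. Its level was 24.4, 21.6, 16.03, 9.93 and 18.5 CPM in the unstimulated cultures, from 277 to 933 reads. It was 17.8, 8.72, 11.8, 8.97 and 9.45 CPM at 30 ng/ml. At 100 ng/ml it was 9.62, 6.96, 7.36, 5.68 and 8.01 CPM. Every culture at 100 ng/ml was below every unstimulated culture, although the margin between 9.62 and 9.93 CPM was narrow. The unstimulated cultures also varied more for Mmp12 (coefficient of variation 30.6%) than for any other tested member (2.17 to 11.7%).

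Mmp12 fell by 1.27 on the log2 scale at 100 ng/ml (SE 0.246, FDR 0.00577), a fold of 0.416. With both concentrations averaged the difference was -0.97 (SE 0.203, FDR 0.00718). With 30 ng/ml alone it was -0.68 (95% confidence interval -1.19 to -0.16) and did not pass (FDR 0.101), and 3 of 5 cultures lay below all unstimulated values. The 30 ng/ml comparison did pass without unstimulated replicate 4, the lowest of its group (FDR 0.0288), and without 30 ng/ml replicate 1, the highest of its group (FDR 0.0260). The difference between 100 and 30 ng/ml, -0.59 (95% confidence interval -1.13 to -0.05), did not pass either (FDR 0.347).

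The microglia markers were lowest at 30 ng/ml, not at 100 ng/ml. Of 14 markers, 10 were lower at 30 ng/ml, beside 3.79% of all genes, and 0 passed at 100 ng/ml (edgeR, FDR under 0.05). The lower ones included Ctss, a lysosomal protease (log2 fold change -0.49), and Trem2, a lipid receptor (-0.51). Summed over the 14 markers, the level was 9646 to 13570 TPM unstimulated, 7700 to 9598 at 30 ng/ml and 9155 to 12040 at 100 ng/ml.

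Set against these markers, in a comparison added after the data were seen, Mmp12 stood at 1.74 ± 0.755 TPM per 1000 marker TPM unstimulated (n = 5). It stood at 1.44 ± 0.644 at 30 ng/ml and 0.734 ± 0.185 at 100 ng/ml. The ratio at 100 ng/ml was 0.421 times the unstimulated one (exact two-sided permutation test, p = 0.0317, Benjamini-Hochberg adjusted over 3 comparisons p = 0.0476) and the 2 groups overlapped. For 30 ng/ml it was 0.827 times the unstimulated ratio (exact permutation p = 0.5), and between 100 and 30 ng/ml it was 0.509 times (exact permutation p = 0.00794, the smallest that 5 against 5 allows, adjusted p = 0.0238).

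**Figure D4:**
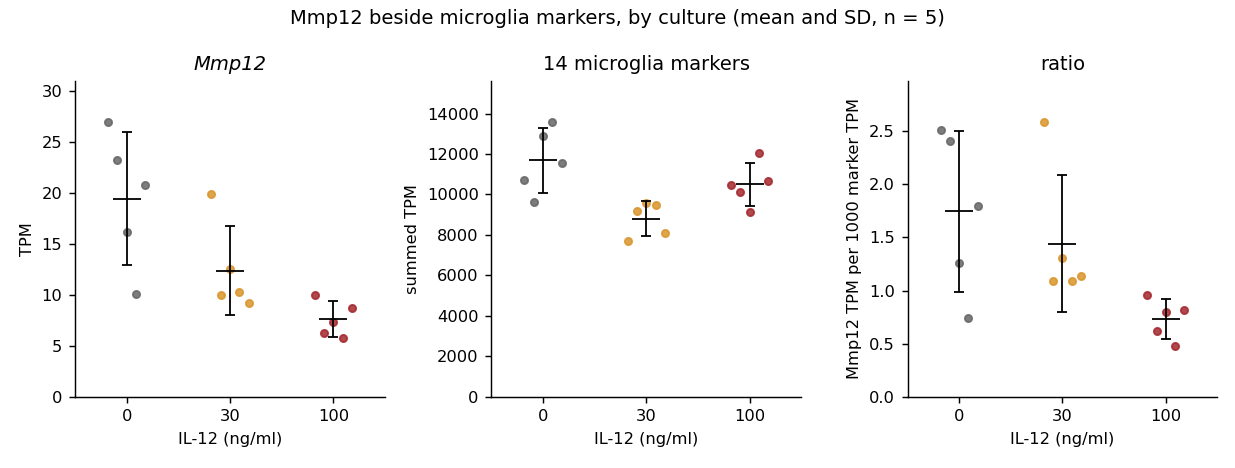
Mmp12 TPM, summed TPM of 14 microglia markers, and Mmp12 TPM per 1000 marker TPM, by IL-12 concentration, with linear axes from 0. Points are cultures and bars give the mean and SD of 5. The marker sum is lowest at 30 ng/ml (7700 to 9598 TPM), whereas Mmp12 and the ratio are lowest at 100 ng/ml (ratio 0.481 to 0.956).

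The promoters of Mmp12 are shown because it was the member with the largest decrease, from 2 annotated starts. They are the 250 bases before each start in RefSeq (build GRCm38.p6, plus strand), at chr9:7344147-7344396 and chr9:7347124-7347373, with the AP-1 motif TGANTCA in capitals:
Mmp12, upstream start: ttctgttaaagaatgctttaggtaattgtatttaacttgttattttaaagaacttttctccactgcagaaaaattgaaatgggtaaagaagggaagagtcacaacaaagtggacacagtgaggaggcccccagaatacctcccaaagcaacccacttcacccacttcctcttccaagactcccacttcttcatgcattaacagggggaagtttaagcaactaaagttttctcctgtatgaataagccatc
Mmp12, downstream start: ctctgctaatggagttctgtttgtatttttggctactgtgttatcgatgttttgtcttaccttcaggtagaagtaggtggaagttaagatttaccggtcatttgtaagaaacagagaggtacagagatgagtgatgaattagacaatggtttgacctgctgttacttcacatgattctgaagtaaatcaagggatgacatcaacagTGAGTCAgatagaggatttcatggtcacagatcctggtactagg

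The AP-1 motif, bound by Fos and Jun dimers, began 44 bases before the downstream start and did not occur before the upstream one. Of all 32851 promoters of that length in the table, 6.75% held it on either strand. The first 30 bases after the upstream start matched transcript Mmp12-203, which held a mean of 59.8% of the gene's TPM, and those after the downstream start matched Mmp12-201 and Mmp12-202, with 0.325% and 14.7%. Mmp12-204, with a mean of 23.5%, matched neither start by these bases. It is annotated from GRCm39 chr9:7347406, close to Mmp12-201 and Mmp12-202 (from 7347374) and farther from Mmp12-203 (from 7344397). Mmp12-203 stood at 12.1 ± 4.47 TPM unstimulated, 7.86 ± 3.76 at 30 ng/ml and 4.35 ± 1.80 at 100 ng/ml, and Mmp12-202 at 2.65 ± 1.06, 1.92 ± 0.620 and 1.06 ± 0.370 TPM, so transcripts of both starts had lower means with IL-12. These splits between transcripts are estimates from shared reads.

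The 5 protein-coding genes whose log2 CPM deviated from its group means most like Mmp12 over the 15 cultures were Vdr (Pearson r = 0.88, Spearman rho = 0.77), Myorg (0.88 and 0.82), Astn2 (0.87 and 0.83), Trp53inp2 (0.87 and 0.76) and Gfra1 (0.87 and 0.84). The points share a library and its depth, and the values are a description only. Between the groups Vdr, the vitamin D receptor (log2 fold change 0.40, FDR 0.0104), and Gfra1 (0.30, FDR 0.00349) were higher at 100 ng/ml. Myorg, Astn2 and Trp53inp2 did not pass there.

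Mmp2 (GRCm39 chr8:93553902-93580049, plus strand) encodes gelatinase A, the proenzyme activated by the Mmp14 product. Its level ranged from 79.4 to 106 CPM unstimulated (median 84.6), from 73.7 to 89.5 CPM at 30 ng/ml and from 84.2 to 103 CPM at 100 ng/ml. All 3 ranges overlapped. The log2 fold change was -0.15 at 30 ng/ml (95% confidence interval -0.31 to 0.01, FDR 0.248) and 0.10 at 100 ng/ml (-0.06 to 0.25, FDR 0.453). The largest of its differences, 0.24 between the concentrations (0.09 to 0.40), did not pass the correction (FDR 0.181).

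Mmp11 (GRCm39 chr10:75759055-75772330, minus strand) encodes stromelysin-3, which is activated inside the cell rather than at its surface. It measured 23.9, 26.8, 24.4, 27.2 and 25.8 CPM unstimulated, ranged from 25.3 to 31.3 CPM at 30 ng/ml and from 22.2 to 28.9 CPM at 100 ng/ml. The groups overlapped throughout. The log2 difference with 100 ng/ml was 0.02 (95% confidence interval -0.14 to 0.17, FDR 0.919), a value that turned negative in 5 of 25 alternative settings, and at 30 ng/ml it was 0.13 (-0.02 to 0.28, FDR 0.319). The gene overlaps Chchd10 on the opposite strand, at a mean of 344 TPM, and whether the counting used strand is not given in the sources used here.

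Mmp9 (GRCm39 chr2:164780439-164797771, plus strand), gelatinase B, was near the limit of detection, with 5 to 15 reads per culture and 0.179 to 0.408 CPM over all 15 cultures. At this depth no difference between the groups was detectable. Summed over Mmp2, Mmp9, Mmp11 and Mmp12, the secreted members held 98.0 ± 3.76 TPM unstimulated, 88.1 ± 6.98 at 30 ng/ml and 90.3 ± 4.44 at 100 ng/ml, with overlapping ranges.

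Among the inhibitors, Timp1 (GRCm39 chrX:20736316-20740976, plus strand) is the inducible member of the family, known in the brain as a product of reactive astrocytes. Its level was 17.6, 20.6, 19.0, 18.1 and 18.8 CPM in unstimulated cultures. It was 28.5, 30.6, 33.6, 29.8 and 28.4 CPM at 30 ng/ml. At 100 ng/ml it was 45.0, 37.8, 35.4, 34.3 and 34.9 CPM. No value of one group fell within the range of another. Timp1 rose by a log2 fold change of 0.68 at 30 ng/ml (SE 0.0736, FDR 4.96e-05) and of 0.99 at 100 ng/ml (SE 0.073, FDR 9.82e-08), a fold of 1.99.

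The step of Timp1 from 30 to 100 ng/ml was 0.31 on the log2 scale (SE 0.0709) and lay just inside the threshold (FDR 0.0492). It stayed under 0.05 in 7 of 25 alternative settings and in 2 of the 15 fits that left out a culture. Over all 25 settings its FDR ranged from 0.00524 to 0.155 and its log2 fold change from 0.24 to 0.36. Without 100 ng/ml replicate 1, the highest culture, it was 0.24 (FDR 0.106). Both increases over unstimulated held in all 25 and under the p and fold thresholds.

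The promoters of Timp1 and Mmp14 are shown because these are the members that rose in steps with concentration. They are the 250 bases before the start in RefSeq (build GRCm38.p6, plus strand), at chrX:20869916-20870165 and chr14:54431348-54431597:
Timp1: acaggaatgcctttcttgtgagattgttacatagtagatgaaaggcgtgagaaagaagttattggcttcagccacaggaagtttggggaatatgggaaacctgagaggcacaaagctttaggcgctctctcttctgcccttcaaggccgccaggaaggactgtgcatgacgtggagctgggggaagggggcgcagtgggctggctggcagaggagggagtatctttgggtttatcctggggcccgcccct
Mmp14: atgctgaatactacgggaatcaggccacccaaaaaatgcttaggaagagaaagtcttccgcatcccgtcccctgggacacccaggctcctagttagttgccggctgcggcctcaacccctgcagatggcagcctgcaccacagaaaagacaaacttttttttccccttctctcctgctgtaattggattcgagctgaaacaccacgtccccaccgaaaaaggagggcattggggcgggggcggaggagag

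In these windows neither the STAT motif TTCNNNGAA nor the AP-1 motif was found. No annotated transcript of Timp1 or Mmp14 began with the first 30 bases after these starts. The windows were therefore not tied to the transcripts measured. The STAT motif was in none of the 8 promoters of the 7 members that the table holds (Mmp11, Mmp12, Mmp14, Mmp15, Timp1, Timp2 and Timp3), against 7.02% of all promoters. The SP1 motif GGGCGG was in 6 of the 8 promoters, all but the 2 of Mmp12, against 32.7% of all, and the motif TATAAA was in none, against 12.4%. Both strands were searched for these letters, and a match or its lack describes this window only. Mmp2, Mmp9 and Mmp17 had no entry.

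Timp1 lies inside Syn1, a synaptic vesicle gene on the opposite strand, and Timp3 likewise lies inside Syn3. Syn1 did not pass at either concentration (-0.20 with FDR 0.103 for the higher, -0.13 with FDR 0.349 for the lower), while Timp1 rose. Syn1 had at most 418 reads per culture and Timp1 at least 492. The 5 protein-coding genes most like Timp1 in their deviations from group means were Mmp24os1 (Pearson r = 0.89, Spearman rho = 0.69), Actr5 (0.85 and 0.63), Akr1e1 (0.84 and 0.78), C1s1 (0.84 and 0.70) and Iftap (0.84 and 0.86), over the 15 cultures and as a description. None of these 5 passed the test at 100 ng/ml.

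Timp2 (GRCm39 chr11:118191887-118246566, minus strand), which both inhibits MMPs and bridges the MMP2 proenzyme to the Mmp14 product, was the most abundant member. It measured 1016, 1057, 1071, 1066 and 1071 CPM unstimulated, 1006 to 1067 CPM at 30 ng/ml and 946 to 1047 CPM at 100 ng/ml. The ranges overlapped. The log2 fold change was -0.06 at 100 ng/ml (95% confidence interval -0.15 to 0.02, FDR 0.330) and -0.03 at 30 ng/ml (-0.11 to 0.05, FDR 0.695).

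Timp3 (GRCm39 chr10:86136236-86185371, plus strand), the inhibitor that binds to the extracellular matrix and also blocks some ADAM proteases, measured 478, 505, 489, 452 and 502 CPM unstimulated. It was 519, 499, 480, 498 and 491 CPM at 30 ng/ml. At 100 ng/ml it was 396, 454, 479, 417 and 441 CPM. Every culture at 100 ng/ml was below every culture at 30 ng/ml, but 100 ng/ml overlapped the unstimulated range. The log2 difference was -0.15 against unstimulated (95% confidence interval -0.25 to -0.05, FDR 0.0643) and -0.19 against 30 ng/ml (-0.29 to -0.08, FDR 0.116), and neither passed. They passed in 5 and 3 of the 25 alternative settings, DESeq2 among them (FDR 0.0240 and 0.0210).

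Summed TPM of the 3 inhibitors was 861 ± 25.4 unstimulated, 869 ± 10.5 at 30 ng/ml and 858 ± 59.0 at 100 ng/ml. Timp1 contributed 43.5 ± 2.68 TPM of this unstimulated and 85.7 ± 8.36 TPM at 100 ng/ml. The group sums overlapped although Timp1 itself did not.

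Transcript composition was compared for 5 of the 6 genes in which more than 1 transcript held at least 10% of TPM, leaving out Mmp9 for its low counts. Timp1-201 held 86.0 ± 5.21% of Timp1 unstimulated, 89.5 ± 5.50% at 30 ng/ml and 87.5 ± 3.87% at 100 ng/ml. Timp2-201 held 64.6 ± 0.761%, 68.3 ± 1.44% and 64.1 ± 3.93%, with no overlap between unstimulated and 30 ng/ml (exact two-sided permutation p = 0.00794, adjusted p = 0.143). None of the 36 comparisons of shares passed the adjustment. With 5 against 5 cultures the smallest possible p was 0.00794. A single comparison could therefore not pass among 36, and the missing calls do not show equal shares. The deposited estimates gave Mmp14-201 a mean of 88.6% of Mmp14 and Timp3-201 99.1% of Timp3.

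**Figure D5:**
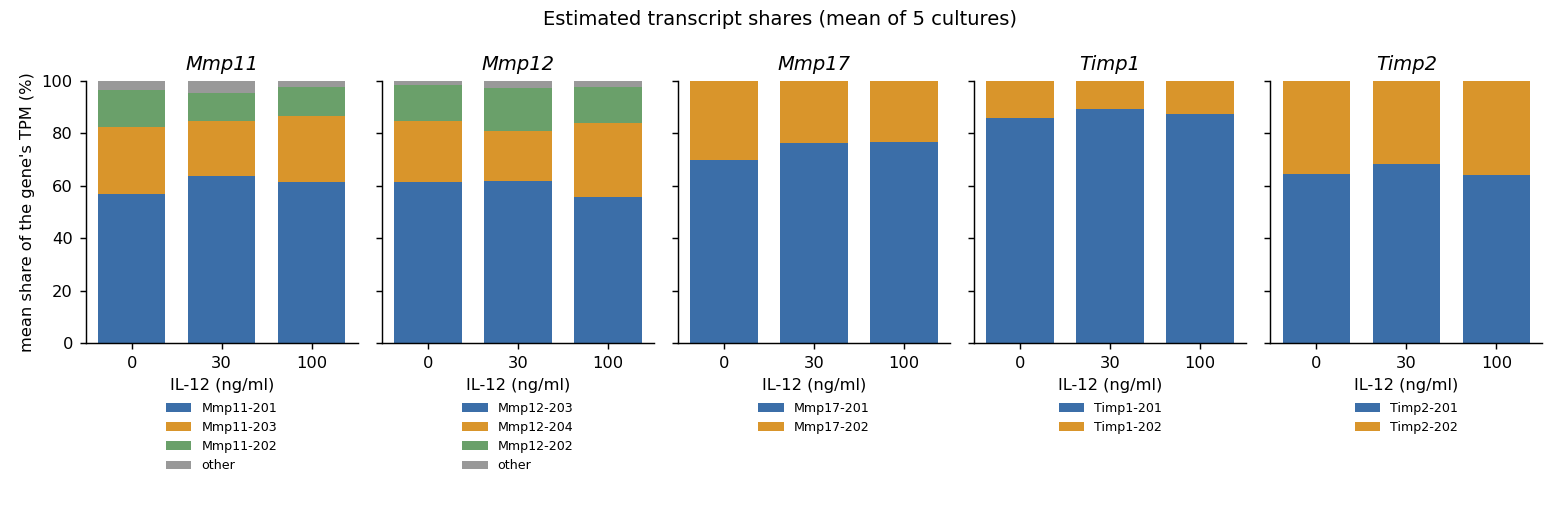
Mean share of the gene's TPM (%) held by each transcript, stacked, in 5 genes at each IL-12 concentration (5 cultures per bar). Transcripts under 10% are pooled as other. Mmp12-203 holds 61.6% unstimulated and 55.9% at 100 ng/ml, and Timp2-201 holds 64.6%, 68.3% and 64.1%.

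Markers of other cells were read beside the increases of Mmp14, Mmp17 and Timp1. Of all genes tested, 9.71% were called at 100 ng/ml and 7.97% at 30 ng/ml, in either direction. Of 10 fibroblast and meninges markers, 2 were higher at 100 ng/ml (Col1a1 and Pdgfrb) and 0 at 30 ng/ml, with summed levels of 1231 to 1561 TPM unstimulated, 1188 to 1419 at 30 ng/ml and 1340 to 1522 at 100 ng/ml. Of 11 astrocyte markers, 2 were higher and 1 lower at 100 ng/ml and 4 were higher at 30 ng/ml, with sums of 3839 to 4298, 4550 to 5308 and 4262 to 4718 TPM. Of 12 oligodendrocyte-lineage markers, 3 were lower at 100 ng/ml and 1 at 30 ng/ml, with sums of 6947 to 10280, 6974 to 8544 and 6220 to 7537 TPM. Of 14 cerebellar neuron markers tested, 1 was higher and 1 lower at 100 ng/ml. With 30 ng/ml, 2 were higher and 2 lower (median log2 fold change -0.49). The summed level of the 15 neuron markers was nevertheless not lower at 30 ng/ml. It was 269 to 343 TPM unstimulated, 328 to 379 at 30 ng/ml and 306 to 333 at 100 ng/ml. Of 5 endothelial markers tested, 1 was lower at 100 ng/ml and 2 at 30 ng/ml (median -0.47). The fibroblast sums overlapped between every pair of groups. The astrocyte sums at 30 ng/ml lay above all unstimulated ones, whereas those at 100 ng/ml overlapped the unstimulated range. The part of these markers in the results was not tested.

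Of the 17 other MMP and TIMP genes of the family, 10 were tested, 4 were higher at 100 ng/ml and 0 lower, beside 5.84% and 3.87% of all genes. The count of 4 fell to 2 without unstimulated replicate 1 or 5 or without 100 ng/ml replicate 1, 3, 4 or 5. Mmp3, a stromelysin that activates several proenzymes, rose from 3.79 ± 0.765 to 7.05 ± 1.67 CPM (log2 fold change 0.90, FDR 0.00214). Mmp19 rose by a log2 fold change of 0.27 (FDR 0.00225), Mmp23 by 0.43 (FDR 0.0396) and Timp4, a brain and heart inhibitor, by 0.22 (FDR 0.0426). After 30 ng/ml Mmp3 (1.06, FDR 0.000824) and Mmp19 (0.27, FDR 0.00319) were higher, whereas Mmp23 (-0.08, FDR 0.784) and Timp4 (0.11, FDR 0.345) did not pass. Mmp1a, Mmp1b and Mmp7 were at 0 in all cultures, and the median log2 fold change of the 10 at 100 ng/ml was 0.22, beside -0.0038 over all genes tested.

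Among 24 genes that activate or restrain proteolysis at the cell surface, 23 were tested, 3 were higher and 2 lower at 100 ng/ml. Over all genes tested, 9.71% were called at 100 ng/ml and 7.97% at 30 ng/ml. Lcn2, a lipocalin that binds gelatinase B, rose by a log2 fold change of 1.05 (FDR 0.00199). A2m, a broad protease trap, rose by 0.36 (FDR 0.000804) and Thbs2, a matricellular protein, by 0.35 (FDR 0.00216). Plau, the urokinase plasminogen activator, fell by 0.48 on the log2 scale (FDR 0.00107) from a mean of 163 ± 12.1 to 117 ± 9.82 CPM. The lower concentration left 2 higher, A2m among them (0.36, FDR 0.00124), and 5 were lower, Plau among them (-0.52, FDR 0.00096). The median log2 fold change of the 23 was -0.04 at 100 ng/ml, close to that of all genes.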

How the data were processed

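RNA-seq libraries of 15 cultures (3 groups of 5) were analysed from deposited tables of estimated counts and TPM values per transcript. Per the labels, the depositors used FastQC 0.10.0, STAR 2.7.8a and featureCounts on GRCm39; the program that made these transcript estimates, and whether strand was used, is not given in the sources used here. Of 121798 transcripts, 120537 (99.0%) matched GENCODE M39 and were summed to 35142 genes; 0.677 to 0.712% of the reads in each culture belonged to unmatched transcripts. The members, gene lists and tests were chosen with earlier results of these data known.

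The deposited estimated counts were rounded to whole numbers. A gene entered the test at 1 CPM or more in 2 or more cultures (15360 genes), in 1 fit of all 3 groups by edgeR 4.0.16 (R 4.3.3, TMM factors, robust quasi-likelihood test), with p-values adjusted over all genes tested and a threshold of 0.05. Confidence intervals are at the 95% level and cover the spread between cultures. TPM, as deposited, served for levels between genes, shares of transcripts and marker sums. Alternatives were DESeq2 1.42.0, limma 3.58.1 on log2(TPM + 0.5), other scalings, filters and thresholds, a fit of the compared groups alone, a replicate block and leaving out each culture. The code was tested on simulated data. Named were all 10 members, from each other protease list the 4 genes with the smallest p at 100 ng/ml, and the 5 genes most like Timp1 and Mmp12; markers, and genes lower at 30 ng/ml, were picked after their values were seen. The marker Fcrls was not matched. Protein sequences were not used here.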

Additional observations from a re-analysis of the deposited data

Results flagged for a closer look

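Of 30 sets of 5 cultures (10 genes in 3 groups), 1 held a culture far from the others, where chance gives about 1 in 20. Timp2 in unstimulated replicate 1 was at 1016 CPM, while the other 4 unstimulated cultures lay between 1057 and 1071 CPM. No Timp2 comparison passed with or without this culture.

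For 2 genes the response differed between the concentrations by a test of the difference itself. The Mmp14 response at 100 ng/ml exceeded that at 30 ng/ml by 0.277 on the log2 scale (edgeR, FDR 0.00738), with 5 of 5 cultures higher. The Timp1 response exceeded it by 0.3147 (edgeR, FDR 0.0492), also with 5 of 5 cultures higher, and this call was lost in 18 of 25 alternative settings.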

How the results depend on the processing

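Over 25 alternative fits at an FDR under 0.05, 845 of 891 differences of single members kept their direction and their side of the threshold, 27 lost the call, 11 gained it and 8 changed sign. The calls of Mmp14 in all comparisons, of Timp1 against unstimulated, and of Mmp12 at 100 ng/ml (FDR up to 0.0195) held in each of these fits. All 8 changes of sign were of differences that passed in none of them: Mmp11 at 100 ng/ml was -0.048 with limma on TPM and -0.0246 to 0.0644 when cultures were left out (-0.0093 without unstimulated replicate 1, -0.0011 without replicate 3, -0.0246 and -0.0014 without 100 ng/ml replicates 3 and 5), Mmp2 for both concentrations averaged was 0.0075 with limma on TPM and -0.0652 to 0.0434 when cultures were left out (positive without unstimulated replicate 4), and Mmp17 between the concentrations was -0.0905 to 0.0106 (positive without 100 ng/ml replicate 2).

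The number of members called between 100 and 30 ng/ml was 1 in place of 2 with edgeR without robust estimation (added after the data were seen), with library size alone, with limma on TPM, with only the groups compared, with the replicate block and at an FDR under 0.01. It was 0 under p and fold thresholds (unadjusted p up to 0.01, log2 change from 0.5). These thresholds called 3 members at 100 ng/ml, 1 at 30 ng/ml and 2 for the average, so that Mmp14 kept its call at 100 ng/ml only, and limma on TPM called 3 at 100 ng/ml. Leaving out a culture gave 4 to 6 members at 100 ng/ml, 3 to 4 at 30 ng/ml, 1 to 2 between concentrations and 4 for the average.

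All genes called at 100 ng/ml were 826 with limma on TPM, 953 with only the groups compared, 541 at an FDR under 0.01 and 309 with the p and fold thresholds, in place of 1492. At 30 ng/ml they were 415 at an FDR under 0.01 and 248 with the p and fold thresholds, in place of 1224. Between concentrations they were 227 with the likelihood-ratio test, 247 with DESeq2, 51 with limma on TPM and 35 at an FDR under 0.01, in place of 96. For the average they were 1211, 707 and 241 with limma on TPM, at an FDR under 0.01 and with the p and fold thresholds, in place of 1837. Leaving out a culture gave 935 to 2928 genes at 100 ng/ml, 711 to 1641 at 30 ng/ml, 46 to 153 between concentrations and 1205 to 2816 for the average. The highest counts at 100 ng/ml and for the average came without 100 ng/ml replicate 2 and the lowest without unstimulated replicate 5. Counts also moved by over 1.5 times without unstimulated replicates 1, 3 and 4, 30 ng/ml replicates 1, 2 and 5 and 100 ng/ml replicates 1, 3, 4 and 5. The causes were not tested.

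Over the genes tested, cultures that share a replicate number showed at most weak correlations of their deviations from group means (-0.183 to 0.264). For Mmp12, replicate 1 was the highest culture in each group. The labels did not say what the numbers mark, so pairing was neither assumed nor excluded. With the number as a replicate block, 1197, 1105, 77 and 1627 genes were called at 100 ng/ml, at 30 ng/ml, between concentrations and for the average, members called were 5, 4, 1 and 4, and Mmp12 passed at 30 ng/ml (-0.67, FDR 0.00807). Of 535 counts for the other gene lists, each for a list, a comparison and an alternative setting, 90 moved by more than 1.5 times. Depth limited Mmp9 alone among the members.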

Other observations

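Of 23 ADAM and ADAMTS proteases, which shed cell-surface proteins and cut proteoglycans, 22 were tested, 4 were higher and 2 lower at 100 ng/ml (edgeR, FDR under 0.05). Of all genes tested, 5.84% were higher and 3.87% lower there. Adamts5, an aggrecanase, rose from 45.4 ± 1.37 to 59.2 ± 5.98 CPM (log2 fold change 0.38, FDR 0.00104). Adamts7 rose by a log2 fold change of 0.54 (FDR 0.00168) and Adam12 by 0.30 (FDR 0.0242), and Adamts16 fell by 0.37 on the log2 scale (FDR 0.00934). At 30 ng/ml 4 were higher and 2 lower, beside 4.18% and 3.79% of all genes.

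Of 24 matrix proteins that MMPs cut, 23 were tested and 2 were higher at 100 ng/ml, a share near the 9.71% of all genes called there, with values that overlapped the unstimulated range. The count was 0 to 4 when a culture was left out, with 0 without unstimulated replicate 1 or 100 ng/ml replicate 3 and 4 without 100 ng/ml replicate 2 or 4. They were Col1a1, a fibrillar collagen chain (0.36, FDR 0.0296), and Eln, elastin, a substrate of the Mmp12 product (0.35, FDR 0.0452). Col1a2 (0.27, FDR 0.0550) and Hspg2 (0.30, FDR 0.0594) did not pass. At 30 ng/ml 0 were higher and 2 lower, beside 4.18% and 3.79% of all genes. The synapsin genes that overlap TIMP genes did not pass at 100 ng/ml, and their log2 differences were -0.20 for Syn1, -0.20 for Syn2 (FDR 0.172) and 0.17 for Syn3 (FDR 0.677).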
